A study of Mus musculus with 2 samples.

Results

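Cluster 6 was a group of 455 liver CD4 T cells whose leading transcripts were those of naive T cells. Its members were the cells that the deposited annotation calls CD4 T cells and that fall in cluster 6 of the deposited clustering at resolution 1.2. They made up 455 of 972 CD4 T cells and of 11929 annotated cells. The clusters had been made from the transcripts of these same cells, so genes that set cluster 6 apart from other clusters are a description and carry no test.

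The cells were CD45+ immune cells from livers of C57BL/6 mice aged 10 weeks according to the sample descriptions, stained with oligonucleotide-tagged antibodies and captured in microwells (BD Rhapsody), so that transcripts and surface proteins were counted in the same cell. Transgenic (TG) mice carried dnTGFβRII, a dominant negative TGFβ receptor transgene that interferes with the cells' own receptor. Its expression is directed to T cells by the mouse CD4 promoter, and T cells of both lineages respond poorly to TGFβ. Such mice are used to study primary biliary cholangitis, an autoimmune disease of the small bile ducts. Wild type (WT) mice were the control. The TG library also held cells of IFN-γ ARE-Del-/- mice and the WT library those of P40-/-IL-2Ra-/- mice. Only the 4647 cells that the annotation names TG and the 7282 that it names WT were used. The number of mice behind each library is not given in the sources used here. With 1 library per genotype, genotype and library cannot be told apart, and no p-value is given.

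Naive CD4 T cells have left the thymus but not yet met their antigen. They circulate through blood and lymphoid organs, and the transcription factors LEF-1 and TCF-1 (gene Tcf7), the IL-7 receptor and tonic receptor signals keep them quiescent and alive. After activation these genes are turned down, while the adhesion molecule CD44, S100 proteins, chemokine receptors and effector genes are turned up. TGFβ is known to restrain this step, and naive CD8 T cells share most of the programme. The CD8αβ cells of cluster 4 were therefore compared with cluster 6 too, although in TG only 40 of these 145 cells (27.6%) were low in CD44 protein, against 91.7% in WT, so that the TG cells of cluster 4 were mostly not naive by that measure.

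Levels were sums of unique molecular identifiers (UMIs, counted transcripts) over all cells of a set, scaled to 1000000 UMIs of that set (CPM). Cluster 6 held 58 TG cells with 174389 UMIs and 397 WT cells with 998836, at a median of 3117.5 and 2478 UMIs per cell. The other CD4 T cells numbered 180 (TG, median 3207.5) and 337 (WT, 2376), and cluster 4 numbered 145 (4961) and 363 (2764). B cells numbered 1068 (2923) and 1494 (2044.5). They should lack T cell transcripts, but their cluster 17 (29 TG and 155 WT cells) held some. Its Tcf7 stood at 88.3 CPM in TG and 243 in WT, against 6.06 and 12.4 in cluster 1 of B cells. The B cell set is therefore not a clean reference without T cell transcripts. Values in parentheses after a level, ratio or share are 95% intervals (exact Poisson, exact conditional binomial and Clopper-Pearson, respectively). They cover counting error only, not the spread between cells or mice. No UMI in cluster 6 allowed a level of up to 17.2 CPM (TG) or 3.00 CPM (WT), the worth of 3 counts. The smaller TG set therefore gave wider intervals throughout. There were 36 cell labels that occurred in both libraries.

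The marker genes of the label are described first. The clusters had been made from these same transcripts, so the levels do not test the label. Lef1 encodes a transcription factor of the naive state and stood at 556 CPM (451 to 679) in TG and 794 CPM (739.6 to 851) in WT. In the other CD4 T cells it was 159.6 and 204 CPM. Tcf7, encoding TCF-1, stood at 1038 CPM (892 to 1201) and 1167 CPM (1101 to 1236), against 436 and 537 CPM. Both genes were thus higher in cluster 6 than in the other CD4 T cells of either library, and their intervals did not overlap. Igfbp4, which encodes an insulin-like growth factor binding protein, showed the widest gap. It reached 401 CPM (313 to 507) and 927 CPM (868 to 989), against 4.47 and 48.5 CPM. Ly6c1, a surface glycoprotein gene, stood at 138 and 292 CPM against 25.4 and 32.7. Dapl1, a death-associated protein-like gene, stood at 68.8 and 153 CPM against 1.49 and 27.4. Clusters with at least 20 cells in a library were ranked, 25 in each and not all the same ones. Among these, cluster 6 had the highest Lef1, Tcf7, Igfbp4 and Ly6c1 in both libraries, whereas Dapl1 was highest in cluster 4, at 148 and 195 CPM. In TG, Dapl1 was also higher in CD8αβ cluster 13, at 101 CPM, so that cluster 6 had rank 3 there and rank 2 in WT.

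**Figure D1:**
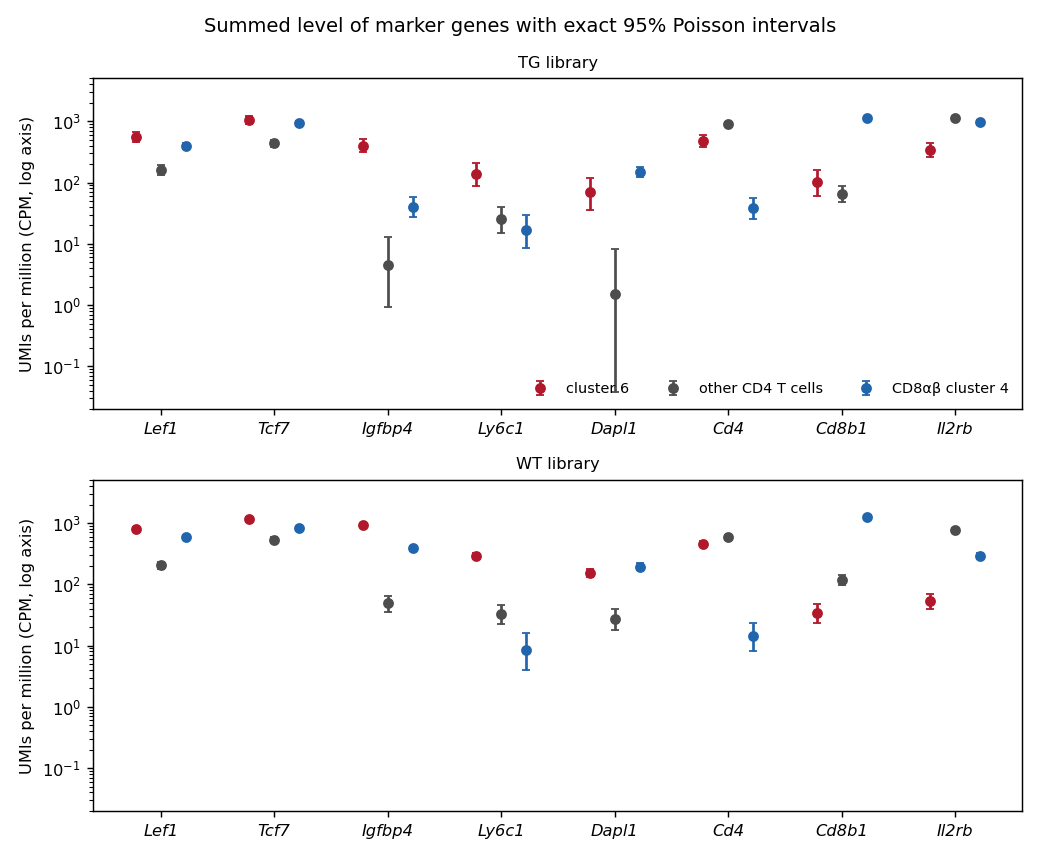
Levels of the 5 naive markers and of Cd4, Cd8b1 and Il2rb in cluster 6, the other CD4 T cells and cluster 4 (CPM, log axis; TG and WT in separate panels; bars are exact 95% Poisson intervals). Cluster 6 lies above the other CD4 T cells for all 5 markers in both panels, while Cd8b1 is high in cluster 4 alone.

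The lineage genes followed the label with a limit in TG. At least 1 Cd4 UMI was found in 63.8% of TG and 61.2% of WT cells of cluster 6, against 5.1% and 5.3% of B cells. After thinning each cell to 1000 UMIs these shares were 46.6% and 35.0%, against 1.5% and 1.9% of B cells. Cd8b1 was seen in 12.1% of TG and 4.8% of WT members. Its 18 TG UMIs gave 103 CPM, of which 72.2% lay in 3 cells, and the WT level was 34.0 CPM. B cells, not a clean reference, held 17.0 and 66.0 CPM, so the WT level is not read as expression by cluster 6. In cluster 4 Cd8b1 stood at 1112 and 1242 CPM. No UMI of Cd8a or Cd8b1 was found in 45 of 58 TG and 356 of 397 WT members, so the rest carried at least 1.

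TG members held fewer marker UMIs per cell, with a mean of 1.88 per 1000 UMIs against 3.27 in WT members. At 1000 UMIs per cell, 25.9% of TG members had no UMI of any of the 5 markers, against 6.80% of WT members. UMIs of at least 2 different markers were found in 37.9% of TG and 68.8% of WT members. In the other CD4 T cells, 56.1% and 52.8% had none, and in B cells 98.7% and 93.4%. Naive T cells are also known to carry little CD44 protein, and 92.9% (90.0 to 95.3) of WT members were below the CD44 gate, the value at which the low and the high of a pair of normal components fitted to all T cells of a library were equally likely. In TG it was 60.3% (46.6 to 73.0), or 58.6% with the gate of WT. Most WT members were thus CD44 low, while 23 of the 58 TG members were CD44 high. Whether antibody counts entered the clustering is not stated, so this is a description and no test of the label. Values of the 35 CD44-low members are given beside some of the TG over WT results. They were not computed for every gene and list.

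Ly6c1 lies beside its near-copy Ly6c2 on chromosome 15 (build GRCm38; Ly6c1 at chr15:75044018-75048830 and Ly6c2 at chr15:75108158-75111970, both on the minus strand). The pair is shown because Ly6c1 is a marker of cluster 6 and Ly6c2 is not. Their longest protein-coding transcripts were 97.6% identical over aligned bases without gaps, so reads may be split between them and both levels are uncertain. The 250 bases before the transcription start (build GRCm38.p6, minus strand, chr15:75048838-75049087 for Ly6c1 and chr15:75111972-75112221 for Ly6c2) differ more. Of 215 aligned pairs of bases, 168 were identical (78.1%). Capitals mark bases that differ or have no partner in the other sequence.
Ly6c1: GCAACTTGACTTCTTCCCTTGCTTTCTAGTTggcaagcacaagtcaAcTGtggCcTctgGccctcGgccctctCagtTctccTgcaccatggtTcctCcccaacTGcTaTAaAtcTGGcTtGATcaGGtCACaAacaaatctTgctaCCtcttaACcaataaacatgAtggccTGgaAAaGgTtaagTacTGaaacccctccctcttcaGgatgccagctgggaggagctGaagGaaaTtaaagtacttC
Ly6c2: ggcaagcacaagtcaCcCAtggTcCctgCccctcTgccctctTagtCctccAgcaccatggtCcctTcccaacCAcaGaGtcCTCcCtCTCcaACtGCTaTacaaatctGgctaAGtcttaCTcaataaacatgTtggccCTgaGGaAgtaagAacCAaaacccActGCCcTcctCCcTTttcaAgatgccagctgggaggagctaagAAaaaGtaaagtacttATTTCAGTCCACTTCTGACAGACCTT

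The Ly6c2 counts had another pattern from those of Ly6c1. Ly6c1 was lower in TG than WT members, with a log2 ratio of -1.06 (-1.75 to -0.49), and in cluster 4 it was 16.6 and 8.58 CPM. Ly6c2, known from memory and effector CD8 T cells, stood at 269.5 CPM in TG and 38.0 in WT members, and 51.1% of the TG UMIs were in 3 cells. In the CD44-low members it stood at 84.3 and 33.0 CPM, a TG over WT ratio of 1.41 (0.09 to 2.46). In cluster 4 it was 1677 and 418 CPM.

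Cluster 6 held a smaller share of CD4 T cells in the TG library. It made up 24.4% (19.1 to 30.3) of TG and 54.1% (50.4 to 57.7) of WT CD4 T cells, a difference of -29.7 percentage points (Newcombe interval -35.9 to -22.9). Cluster 9 took 55.5% and 37.1% (difference 18.4, 11.1 to 25.5), and cluster 21, where Foxp3 of regulatory T cells was high, 20.2% and 8.86% (difference 11.3, 6.18 to 17.2). These shares depend on each other, so T cells as a whole were used as a second denominator. Of all T cells (CD4, CD8αβ, CD8αα, NKT and γδ), cluster 6 was 2.72% in TG and 9.52% in WT, a difference of -6.80 points (-7.91 to -5.64), while cluster 9 was 6.19% and 6.52% (-0.327, -1.56 to 0.986). Cluster 21 was 2.25% and 1.56% of T cells (difference 0.694, 0.0008 to 1.49), and its difference as a share of all cells was 0.140 (-0.211 to 0.525). Of T cells, cluster 6 was still lower in TG and the interval of cluster 9 spanned 0, while that of cluster 21 lay barely above 0. Cluster 4 was 14.2% of TG and 44.3% of WT CD8αβ cells. Among cells of clusters 6 and 4 together, cluster 6 was 28.6% (22.5 to 35.3) of TG and 52.2% (48.6 to 55.8) of WT. The marker genes of cluster 6 were themselves lower in its TG cells (median log2 ratio -1.06), so a smaller cluster and a shifted border of it cannot be told apart in these shares. By CD44 protein with the gate of each library, and over the CD4 T cells of clusters 6, 9 and 21, 25.2% (19.8 to 31.2) were CD44 low in TG and 53.8% (50.1 to 57.5) in WT, a difference of -28.6 points (-34.8 to -21.7). The fitted low component lay at 2.74 in TG, close to the gate of 2.82, and at 1.69 in WT. In TG, 19 of 48 cells of cluster 21 were below the gate, or 22.9% with the gate of WT. The CD44-low cells need not be of the same kind in both libraries.

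**Figure D2:**
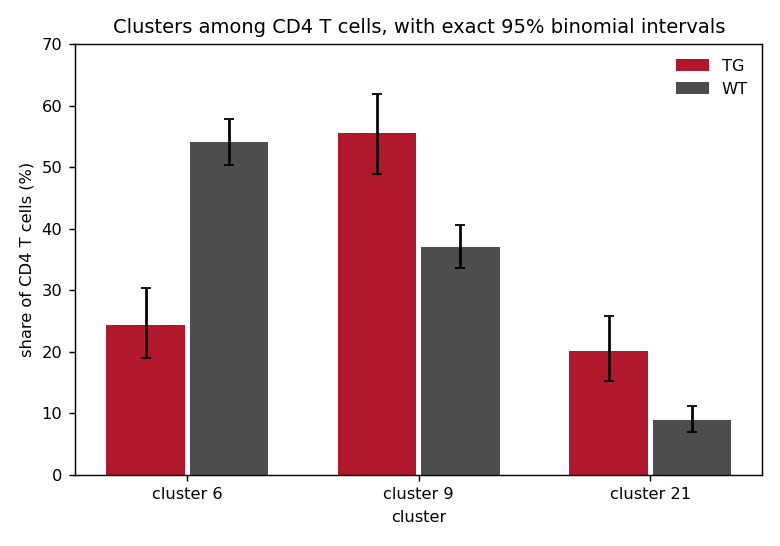
Share of CD4 T cells in clusters 6, 9 and 21 (percent, TG and WT bars from 0; error bars are 95% Clopper-Pearson intervals). Cluster 6 holds 24.4% of TG and 54.1% of WT CD4 T cells, and clusters 9 and 21 hold larger shares in TG.

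Against the other CD4 T cells, cluster 6 was set apart by naive genes that were higher and activation genes that were lower. Ratios are log2 of the CPM in cluster 6 over that in the comparison set, with 0.5 UMIs added to each. Over all genes the median was -0.10 in TG and -0.15 in WT, and rescaling with TMM or without ribosomal and mitochondrial genes moved it by at most 0.18. Of 22 naive genes with at least 10 UMIs, 21 were higher in TG (median 1.45), and 23 of 23 in WT (median 0.86). The TG median was 0.85 after thinning, 0.85 without doublets and cells with B cell marker UMIs and 0.94 over genes with at least 50 UMIs, so no excess of TG over WT is read from it. Among genes with at least 50 UMIs, 8 of 18 naive genes were at least 2-fold higher in TG and 9 of 22 in WT, where 3.19% of all 3042 and 2.01% of all 5315 such genes were. Of 32 activation genes, 31 were lower in each library, with medians of -2.31 and -3.18. At least 2-fold lower were 29 of 30 in TG and in WT, where 11% and 7.83% of all genes were. As these genes entered the clustering, nothing is read from the shares. The counts of all genes higher and lower by 2-fold, 97 and 336 in TG and 107 and 416 in WT, became 178 and 239 in TG and 189 and 304 in WT without ribosomal and mitochondrial genes, and 176 and 310 in WT with TMM.

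The naive genes spanned several roles. Il7r, the receptor for the survival cytokine IL-7, stood at 1474 CPM in TG and 1488 in WT against 779 and 989.6 in the other CD4 T cells. Ccr7, which guides cells into lymph nodes, had ratios of 2.46 (1.55 to 3.43) and 2.20 (1.79 to 2.66). Bach2, a repressor of effector genes, had 3.05 (2.16 to 4.07) and 1.85 (1.41 to 2.34). Satb1, a chromatin organiser, had 1.87 (1.52 to 2.22) and 1.86 (1.65 to 2.09). All of these intervals lay above 0. Among the 2665 genes ranked by the naming rule, which leaves out genes under 50 UMIs (such as Ccr7) or with over 50% of their UMIs in 3 cells (such as Igfbp4, S100a4, Ccr2 and Maf), the highest by the smaller of the TG and WT ratios were Pdk1 (2.72 and 2.20), a kinase gene that limits entry of pyruvate into the mitochondrial cycle, and Als2cl (3.53 and 2.14). Actn1, encoding an actin crosslinker, followed with 3.64 and 2.06, then Nsg2 (2.54 and 1.98), Rflnb, Pik3ip1, Smad7 and Ugcg, beside Satb1 and Lef1. Klf2, which maintains homing receptors, and S1pr1, its target needed to leave lymphoid tissue, differed less. Klf2 had 0.73 (0.45 to 1.00) and 0.61 (0.43 to 0.78), and S1pr1 0.27 (-0.23 to 0.72) and 0.47 (0.22 to 0.72), the TG interval of S1pr1 spanning 0.

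The lower genes were those of activated, memory and effector cells. S100a4 was nearly absent, with 2 and 8 UMIs in cluster 6 against 643 and 486 CPM in the other CD4 T cells. S100a6 had ratios of -3.01 (-3.60 to -2.51) and -4.19 (-4.67 to -3.78). Itgb1, the β1 integrin chain of memory cells, had -2.02 (-2.44 to -1.65) and -3.68 (-4.05 to -3.35). Il2rb, the IL-2 and IL-15 receptor β chain, had -1.73 (-2.15 to -1.36) and -3.84 (-4.28 to -3.45). These genes were lower in both libraries, and the ratio was nearer to 0 in TG for S100a6, Itgb1 and Il2rb. Cxcr3, a chemokine receptor of Th1 cells, had -2.34 (-3.56 to -1.45) and -4.36 (-5.58 to -3.47). At the low end of the same ranking stood Nrp1, S100a6, Cxcr3, S100a10 (-2.29 and -2.72), S100a11, Nkg7 (-2.22 and -3.32), a granule gene of cytotoxic cells, Vim (-2.52 and -2.13), an intermediate filament gene, Glrx, Ybx3 and AW112010. Maf, a factor of effector and helper subsets, had -2.38 (-3.0 to -1.85) and -3.98 (-4.46 to -3.56). Cd69, an early activation gene, was the exception in its list, with 0.62 (0.08 to 1.12) in TG and 0.24 (-0.01 to 0.49) in WT.

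Genes of specialised helper cells were scarce. Foxp3 had no UMI in TG cluster 6 and stood at 9.01 CPM in WT, against 270.0 and 234 CPM in the other CD4 T cells. Nrp1, a surface molecule of thymus-derived regulatory T cells, had no UMI in cluster 6 of either library, against 86.5 and 109.7 CPM. The medians of the regulatory T cell list were -3.07 (7 of 7 lower) and -2.53 (8 of 8 lower), those of the Th1 list -1.74 and -3.22 (6 of 6 lower in both), and those of the NKT list -2.62 (4 of 4) and -2.67 (5 of 5). Of the Th17 list, cluster 6 had 0 UMIs in TG, as did the other TG CD4 T cells, and in WT 2 CPM against 160.4 in the other CD4 T cells. The TG zeros may include genes that the deposited matrix holds at 0 for all TG cells. The CD4 lineage list was lower too, at -1.09 (7 of 8) and -0.29 (5 of 8). It included Cd4 itself, with -0.92 (-1.27 to -0.59) and -0.34 (-0.52 to -0.16), and Gata3, a factor of CD4 commitment and Th2 cells, with -1.91 (-2.62 to -1.33) and -1.1 (-1.40 to -0.81). Cluster 6 was thus not marked by more Cd4 transcript than other CD4 T cells.

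**Figure D3:**
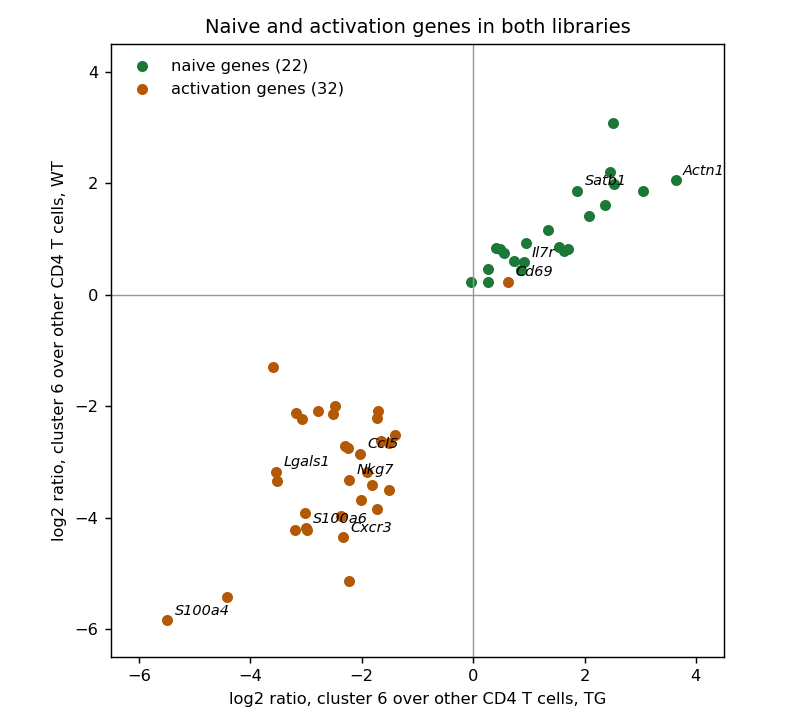
Log2 ratio of cluster 6 over the other CD4 T cells for naive and activation genes with at least 10 UMIs in both libraries (x axis TG, y axis WT). Naive genes lie above 0 on both axes apart from 1 in TG, and activation genes lie below 0 on both axes apart from Cd69.

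Metabolic and trafficking genes divided. The glycolysis list had medians of -0.58 (12 of 14 lower) and -0.64 (13 of 14). Gapdh, a central glycolytic enzyme gene, had ratios of -1.26 (-1.68 to -0.88) and -0.60 (-0.79 to -0.42). Ribosomal protein genes, a list added after values were seen, were higher, at 0.64 (85 of 88) and 0.56 (85 of 89). The median ribosomal share per cell was 21.9% and 23.8% in cluster 6 against 13.5% and 14.2% in the other CD4 T cells, and 28.0% and 25% in cluster 4. At 1000 UMIs per cell, cluster 6 cells showed a median of 630.5 (TG) and 611 (WT) genes against 674 and 665. The trafficking list had medians of -0.66 (14 of 21 lower) and -1.04 (15 of 21). Ccr2 (-4.41 and -5.43) and Cxcr6 (-2.22 and -5.14), chemokine receptors of cells that enter inflamed tissue or liver, were lower. Cxcr4, the receptor for CXCL12, was higher, at 0.84 (0.17 to 1.47) and 1.17 (0.84 to 1.52).

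The remaining lists varied. Interferon genes had medians of -0.15 in TG (24 of 39 lower), within the shift of 0.18, and -0.65 in WT (34 of 40 lower). The medians of T cell receptor genes were -0.14 in TG and -0.16 in WT, and those of survival genes 0.09 and -0.18, all about as far from 0 as the largest shift by another scaling, 0.18, or nearer, so that no direction is read from them. Within the survival list Bcl2, which protects from apoptosis, was higher in both libraries, with ratios of 1.78 (1.24 to 2.31) and 0.73 (0.43 to 1.04). Cish, a target of STAT5, was lower, with -1.90 (-3.34 to -0.90) and -3.57 (-4.90 to -2.61). The medians of immediate early genes were 0.31 (18 of 22 higher) and 0.07 (15 of 22), that of WT nearer to 0 than the same shift. The T cell receptor response list had 0.59 (6 of 11 higher) and -0.52 (4 of 12), the cell cycle list -0.62 (8 of 15 lower) and -1.18 (8 of 14), the Th2 list -2.76 and -4.61 (4 of 4 lower in both), and the Tfh list -1.80 (2 of 2) and -1.84 (5 of 5).

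The pathway blocked by the transgene was given its own list of 15 TGFβ genes. Its median for cluster 6 over the other CD4 T cells was -0.11 in TG (8 of 14 lower) and 0.12 in WT (9 of 15 higher), both nearer to 0 than that shift. Smad7, an inhibitor of the pathway and a target gene of it, stood at 183 CPM in TG and 312 in WT members, against 73.1 and 117 in the other CD4 T cells. Tgfbr3, a co-receptor, was also higher in cluster 6, with ratios of 2.77 (1.26 to 4.54) and 2.13 (1.47 to 2.92). Tgfbr2 encodes the receptor that the transgene mimics, and counts of it may include transgene transcripts, which the values cannot separate. Its level was 287 CPM (213 to 378) in TG and 235 CPM (206 to 267) in WT members, a TG over WT ratio of 0.30 (-0.19 to 0.73). In the other CD4 T cells the ratio was 0.96 (0.69 to 1.23), in cluster 4 -0.02 (-0.35 to 0.31) and in B cells -0.09 (-0.23 to 0.06). Tgfbr2 thus does not serve as a check of the genotype in cluster 6.

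By rank correlation of summed profiles, cluster 4 was the cluster most like cluster 6. The Spearman correlation was 0.850 over 3062 genes in TG and 0.933 over 7546 in WT. Next came cluster 13 in TG (0.832) and cluster 9 in WT (0.898). This is a description of sets that share a library but differ in depth. In TG, cluster 6 held 174389 UMIs, cluster 4 721986 and cluster 9 475456. The part of depth in this order was not tested. Cluster 6 had a naive gene median of 0.36 (16 of 23 higher) and 0.23 (18 of 23) over cluster 4. In TG the median of all genes was 0.18, and TMM moved it by -0.22. Among genes with at least 50 UMIs, 4.26% of 2748 were 2-fold higher and 3.64% lower in TG (117 and 100 genes), and 1.33% of 5199 higher and 1.87% lower in WT (69 and 97). The TG counts became 60 and 152 with TMM, and 82 and 124 without ribosomal and mitochondrial genes. At 2-fold, 1 of 22 naive genes was higher in TG and 0 of 22 in WT, and none was lower in either.

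Lineage genes separated them. The CD4 lineage list had medians of 0.44 in TG (6 of 7 higher) and 1.08 in WT (8 of 8 higher), that of TG 0.22 with TMM. Cd4 had ratios of 3.60 (2.98 to 4.29) in TG and 4.96 (4.27 to 5.86) in WT, and Zbtb7b, encoding the CD4 lineage factor ThPOK, 2.05 (0.15 to 3.95) and 5.01 (3.42 to 8.39). Cd40lg, whose product helps B cells, had 8 and 67 UMIs in cluster 6 and 0 and 4 in cluster 4. The CD8 lineage list was lower by medians of -2.48 (7 of 7) and -2.59 (8 of 8), led by Cd8b1 with -3.39 (-4.19 to -2.76) and -5.17 (-5.73 to -4.70). Eomes, a factor of memory CD8 cells, had no UMI in TG members against 134 CPM, and stood at 7.01 against 43.9 CPM in WT. The other genes lowest in both libraries were Nkg7, Il2rb, Ctsw, Ms4a4c, Hopx, Ybx3, Dnajc15, Zyx and Ptpn22.

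Several genes outside the lineage lists were higher in the CD4 cells. Ly6a, encoding the surface protein Sca-1, had 2.79 (2.33 to 3.26) and 2.07 (1.62 to 2.58). Selenop, a selenium carrier, had 2.18 (1.74 to 2.62) and 1.40 (1.21 to 1.60). Igfbp4 had 3.31 (2.68 to 4.0) and 1.25 (1.08 to 1.42). Each of them was thus higher in both libraries. Btla, an inhibitory receptor gene, had 1.26 (0.37 to 2.07) and 1.35 (0.77 to 1.98), and Itga6, the α6 integrin chain, 1.43 (0.74 to 2.08) and 1.16 (0.77 to 1.58). Ass1, Trib2, Mllt3 and Nrip1 completed the 10 highest. The activation list had medians of -0.33 (17 of 28 lower) and -0.34 (19 of 30).

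Between the genotypes, members of cluster 6 differed in activation, interferon and naive marker genes. Ratios here are log2 of TG over WT. The median over all genes was 0.11, and TMM moved it by -0.15. Of 3576 genes with at least 50 UMIs, 3.24% (116) were at least 2-fold higher in TG and 2.88% (103) lower, and these counts became 75 and 166 with TMM. Of 7909 genes with at least 10 UMIs, the interval lay above 0 for 6.3% and below 0 for 3.43%. Of the 5 marker genes all were lower in TG (median -1.06), 4 with intervals below 0, and 3 of 5 were at least 2-fold lower. In the CD44-low members their median was -0.57, and the intervals of Dapl1, Lef1 and Tcf7 spanned 0. Naive genes had a median of -0.16 (18 of 23 lower, 7 with intervals below 0), with 0 of 22 past 2-fold, a median that TMM would move further from 0 and that was -0.0029 in the CD44-low members. Activation genes had a median of 1.07 (24 of 28 higher, 15 with intervals above 0), with 10 of 17 at least 2-fold higher, and a median of 0.42 in the CD44-low members. Interferon genes had 0.83 (36 of 39 higher, 21 with intervals above 0), with 8 of 26 at least 2-fold higher, and 0.82 in the CD44-low members.

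The same ratios in other cells of both libraries were taken next. The median of the 5 markers was -0.35 in the other CD4 T cells, -0.39 in cluster 4 and -2.65 in B cells. In B cells all 5 intervals lay below 0, as did 14.8% of those of all genes there, while 9.39% lay above 0. Cluster 17, which held T cell transcripts, made up 155 of 1494 WT but 29 of 1068 TG B cells. Its part in these ratios was not tested. In cluster 1 of B cells, Lef1, Tcf7 and Igfbp4 were lower in TG. There Dapl1 stood at 1.59 CPM in TG and 0.353 in WT, and Ly6c1 at 0.638 and 0.706. Igfbp4 stood at 40.2 CPM in TG and 389 in WT cells of cluster 4, a wider gap than in cluster 6. The activation median was 0.38 in the other CD4 T cells, 0.49 in cluster 4 and -0.63 in B cells. The interferon median was 0.33, -0.06 and 0.48, and that of naive genes -0.61, -0.33 and -0.19. Whether cluster 6 differed from these sets in its ratio was not tested. Summed over the list, activation genes took 4656 CPM in TG and 2435 in WT members, against 21798 and 17548 in the other CD4 T cells and 7788 and 3859 in cluster 4. The log2 ratio of the sums was 0.94 in cluster 6 and 1.01 in cluster 4. The TG members thus stood above the WT members and well below the other CD4 T cells of either library. B cells held 3933 CPM in TG and 4800 in WT, so TG members were near the B cell level and WT members below it. At 1000 UMIs per cell the mean was 4.81 activation UMIs in TG and 2.41 in WT members, against 3.43 and 3.99 in B cells. The 6 TG and 40 WT members richest in these UMIs held 29.3% and 30.2% of all activation UMIs of members.

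Il2rb had the highest lower bound of the TG over WT ratio among the genes ranked by the naming rule. It stood at 338 CPM (258 to 436) in TG and 53.1 CPM (39.7 to 69.4) in WT members, a ratio of 2.67 (2.11 to 3.24). At 1000 UMIs per cell it was seen in 25.9% and 4.8% of members, against 5.8% and 9.8% of B cells. In B cells the ratio ran the other way, at -1.47 (-1.68 to -1.27). The WT level in members (53.1 CPM) was below that of B cells (216 CPM) and is not read as expression by cluster 6. No level of background was measured. In the 35 and 369 CD44-low members the ratio was 1.70 (0.71 to 2.56), and in members with Cd4 and no Cd8 UMIs 2.92. Itgb1 followed with 2.15 (1.63 to 2.66), at 333 and 75.1 CPM, against 78.6 and 75.1 in B cells. Among CD44-low members its interval spanned 0, at 1.16 (-0.24 to 2.24). Maf had 1.84 (1.1 to 2.55) over all members and 0.06 in the CD44-low members.

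Ccl5 and S100a6 lay near the levels of B cells in TG and below them in WT. Ccl5, an effector chemokine gene, stood at 849 and 332 CPM in members, but B cells held 834 and 1122 CPM, and 50% of the TG UMIs were in 3 cells. Its ratio was 1.36 (1.06 to 1.64), and 0.08 with an interval spanning 0 in members with Cd4 and no Cd8 UMIs. Neither level of Ccl5 is read as expression by cluster 6. S100a6 had 1.91 (1.19 to 2.60), at 172 and 46.1 CPM against 152 and 103 in B cells.

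Markers of other cells were higher in TG members as well. The 10 B cell markers summed to 1101 CPM in TG and 559.7 in WT members (5 of the 6 measured were higher, median 1.70), against a TG over WT median of 0.17 in B cells themselves. Cd79a, a defining B cell gene, stood at 63.1 and 19.0 CPM, and Ebf1 had 3 and 0 UMIs. Cd74 and H2-Aa, genes of antigen presentation by MHC class II, were among the 10 highest ratios, at 1.65 (1.21 to 2.08) and 2.05 (1.2 to 2.86). Both belong to the B cell list, where B cells held 14765 and 14221 CPM of Cd74. Myeloid markers summed to 682 and 175 CPM, mainly S100a8 (252 and 58.1) and S100a9 (338 and 65.1) of neutrophils, whereas C1qa and Adgre1 of macrophages had no UMI in members. NK cell markers summed to 155 and 38.0 CPM with Ncr1 at 0 and 3 UMIs, γδ T cell markers to 63.1 and 27.0, and erythroid markers to 1.00 in WT. The part of these RNAs in the activation and interferon differences was not tested. The endothelial and platelet list, measured by 1 gene, had -0.15.

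The interferon list held signalling factors, GTPases and genes of antigen processing. Iigp1, an interferon-induced GTPase gene, had 27 and 12 UMIs and a ratio of 3.66 (2.66 to 4.80), beside 3.28 (2.55 to 4.19) in B cells. Iigp1 was thus higher in TG members and TG B cells. Gbp6, a guanylate-binding protein gene, had 2.03 (1.03 to 2.98), and Psmb8, a subunit of the immunoproteasome, 1.16 (0.82 to 1.48). Epsti1 had 1.92 (1.37 to 2.45), and Ly6a 1.69 (1.33 to 2.04). B2m, the light chain of MHC class I, stood at 3962 and 2576 CPM, a ratio of 0.62 (0.50 to 0.74). In the CD44-low members the ratios stayed above 0, at 3.92 for Iigp1, 1.69 for Epsti1 and 1.27 for Ly6a. The 3 genes below 0, each with an interval spanning 0, were Psmb10 at -0.46 (-1.39 to 0.27), Bst2 at -0.43 (-2.25 to 0.78) and Ifi208 at -0.34 (-1.2 to 0.36).

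**Figure D4:**
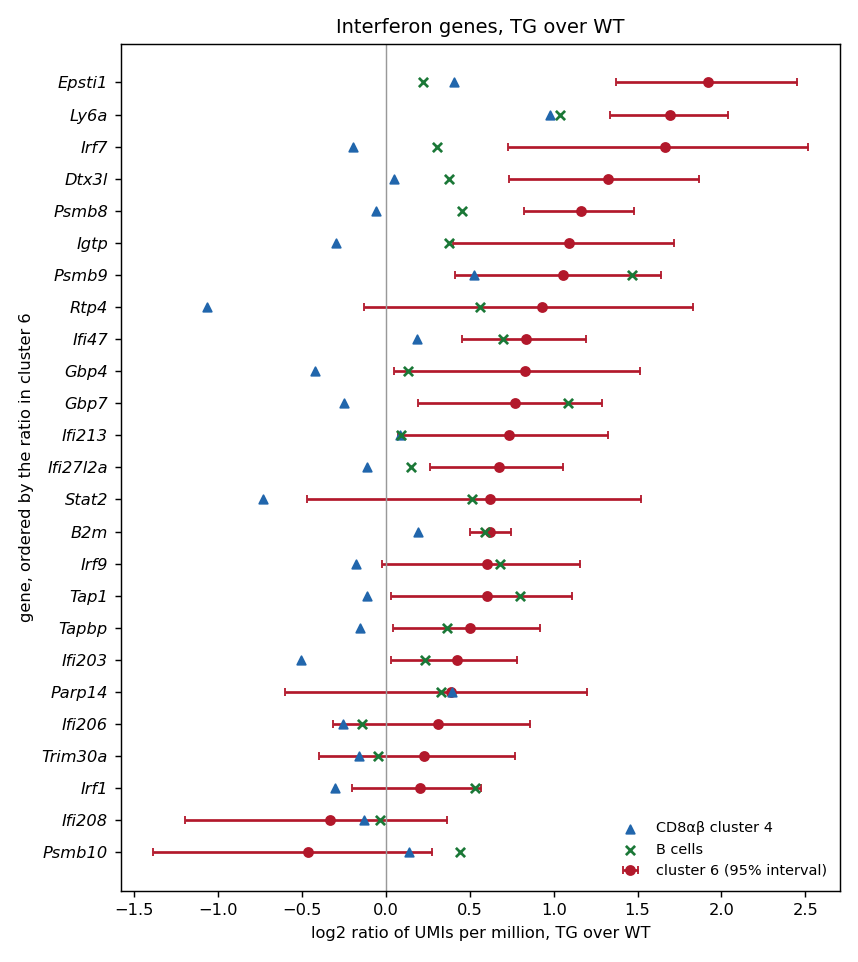
Log2 TG over WT ratio of 25 of the 26 interferon genes with at least 50 UMIs in cluster 6, 1 being not reported by name (circles with exact 95% intervals), beside the same ratio in cluster 4 (triangles) and B cells (crosses). Epsti1 lies highest, at 1.92, and Psmb10 lowest, at -0.46.

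Against cluster 4 of the same library, interferon genes had opposite medians, 0.46 in TG (33 of 38 higher) and -0.28 in WT (30 of 39 lower). The median of all genes was 0.18 in TG and 0.03 in WT, and TMM moved the ratios by -0.22 and -0.03. Part of the TG median thus depends on scaling. Summed, the interferon genes took 11067 CPM in TG and 6589 in WT members, 8097 and 7905 in cluster 4, 14510 and 10557 in the other CD4 T cells and 9040 and 6078 in B cells. The TG over WT gap was therefore seen in cluster 6, the other CD4 T cells and B cells, and was small in cluster 4. The TG library also held cells of IFN-γ ARE-Del-/- mice, and 5379 of its cells had no genotype name. Whether RNA of such cells had a part in the interferon ratios was not tested, and it cannot be told apart from genotype here.

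Promoters of interferon genes are shown because most genes of the list were higher in TG. The letters GAAANNGAAA (reverse complement TTTCNNTTTC) resemble the element bound by interferon-activated factors. They were searched on either strand of the 250 bases before each RefSeq start (build GRCm38.p6). They occurred in 14 of 29 promoters found for the interferon list (48.3%), in 1 of 19 of the naive list (5.26%), in 0 of 22 of the activation list and in 823 of all 27025 promoters (3.05%). A match is only a description of the letters, and Bst2 and Ifi208, with ratios below 0, held it too. The promoters of B2m (chr2:122147437-122147686), Gbp2 (chr3:142620413-142620662), Gbp7 (chr3:142530086-142530335) and Igtp (chr11:58199306-58199555), all on the plus strand, each held it, with the match beginning 139, 59, 53 and 34 bases before the start. Capitals mark the match.
B2m: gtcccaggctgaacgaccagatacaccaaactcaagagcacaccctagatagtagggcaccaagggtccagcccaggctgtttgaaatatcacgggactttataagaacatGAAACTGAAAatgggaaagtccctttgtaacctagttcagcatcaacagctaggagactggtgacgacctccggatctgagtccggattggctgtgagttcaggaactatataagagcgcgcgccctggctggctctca
Gbp2: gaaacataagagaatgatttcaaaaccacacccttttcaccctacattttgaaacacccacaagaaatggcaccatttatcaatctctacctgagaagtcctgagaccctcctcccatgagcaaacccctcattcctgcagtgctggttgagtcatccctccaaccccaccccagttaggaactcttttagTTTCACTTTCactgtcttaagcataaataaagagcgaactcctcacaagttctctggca
Gbp7: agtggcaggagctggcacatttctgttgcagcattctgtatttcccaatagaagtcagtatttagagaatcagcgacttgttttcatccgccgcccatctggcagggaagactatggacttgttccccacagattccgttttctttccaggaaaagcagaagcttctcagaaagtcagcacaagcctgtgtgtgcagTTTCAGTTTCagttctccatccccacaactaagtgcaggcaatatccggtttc
Igtp: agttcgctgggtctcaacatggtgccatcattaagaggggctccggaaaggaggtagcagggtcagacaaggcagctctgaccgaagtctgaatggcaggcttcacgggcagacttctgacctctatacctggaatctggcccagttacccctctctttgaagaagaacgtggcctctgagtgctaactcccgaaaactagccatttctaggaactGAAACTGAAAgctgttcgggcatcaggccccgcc
The TG over WT ratios of these genes in cluster 6 were 0.62 (0.50 to 0.74) for B2m, 1.34 (0.25 to 2.29) for Gbp2, 0.77 (0.19 to 1.29) for Gbp7 and 1.09 (0.40 to 1.72) for Igtp, a GTPase gene. In B cells they were 0.59, 1.68, 1.08 and 0.37, and in cluster 4 0.19, -0.06, -0.25 and -0.30.

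Naive markers were lower in TG members. Igfbp4 had a ratio of -1.2 (-1.58 to -0.86), Lef1 -0.51 (-0.83 to -0.21) and Tcf7 -0.17 (-0.40 to 0.06), the interval of Tcf7 spanning 0. In the CD44-low members Igfbp4 stayed below 0, at -0.73 (-1.13 to -0.37), as did Ly6c1, at -0.65 (-1.44 to -0.02). There Dapl1 was -0.57 (-1.66 to 0.25), Lef1 -0.17 and Tcf7 -0.04. Over all members, Ccr7 was lower too, at -0.82 (-1.49 to -0.26), as were Actn1 at -0.66 (-1.02 to -0.33), Nsg2 at -0.58 (-1.1 to -0.13) and Smad7 at -0.75 (-1.34 to -0.24). For these genes and those named below in this paragraph, no ratio in the CD44-low members was computed. Il7r at -0.01 (-0.21 to 0.18) and Satb1 at -0.13 (-0.41 to 0.13) had intervals that spanned 0. Dusp10, encoding a phosphatase that limits MAP kinases, had -2.24 (-3.67 to -1.26), at 7 and 202 UMIs. Sesn1, a stress-response gene, had -1.45 (-2.60 to -0.60), with -1.24 (-1.91 to -0.65) in the other CD4 T cells. Other genes among the lowest by the rule were Gm9844, Tuba1a, mt-Nd2, mt-Nd4l, Pbrm1 and Emb, and H2-Q6 and Trafd1 were among the highest.

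Helper genes were few in either genotype. Th1 genes had a TG over WT median of 2.37 (5 of 5 higher), a list that holds Ccl5. Cxcr3 had 2.52 (1.01 to 4.03), at 9 and 9 UMIs. Regulatory T cell genes had 1.1 (6 of 6 higher, 2 with intervals above 0), although Foxp3 was at 0 and 9 UMIs. The Th1 and regulatory T cell lists were not recomputed in the CD44-low members. CD8 lineage genes had 0.92 (5 of 6 higher), and the CD4 lineage list -0.28 (5 of 8 lower). TGFβ genes had -0.24 (9 of 14 lower, 3 with intervals below 0), T cell receptor genes -0.18 (8 of 14 lower) and the receptor response list -0.19 (8 of 11 lower). Of all genes, 6.3% had intervals above 0 and 3.43% below 0. The medians of CD4 lineage, TGFβ and T cell receptor genes turned above 0 under at least 1 alternative each (0.14, 0.015 to 0.027 and 0.064 to 0.067), so no direction is read from them. The medians of trafficking, survival and glycolysis genes were 0.39, 0.35 and 0.33, those of immediate early genes -0.07 and of cell cycle genes 0.00.

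Surface proteins, deposited as natural-log centred ratios of antibody counts, were compared by their medians for 48 antibodies. Whether antibody counts entered the clustering is not stated, so these too are descriptions. CD4 protein was 3.77 in TG and 3.63 in WT members, near the other CD4 T cells (3.68 and 3.33) and above cluster 4 (1.33 and 0.58). CD8b was 0.45 and 0.59, against 1.94 and 1.88 in cluster 4. The study named its cell types from these proteins together with transcripts, so this order was fixed by the labels. B cells stood at 1.63 and 1.70 for CD8b, near cluster 4, which limits what this antibody shows of lineage. CD44 was 2.13 (quartiles 1.42 and 3.42) in TG and 1.76 (1.44 and 2.13) in WT members, against 3.50 and 3.42 in the other CD4 T cells. The upper quartile of TG members lay above the gates of 2.82 (TG) and 2.62 (WT).

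**Figure D5:**
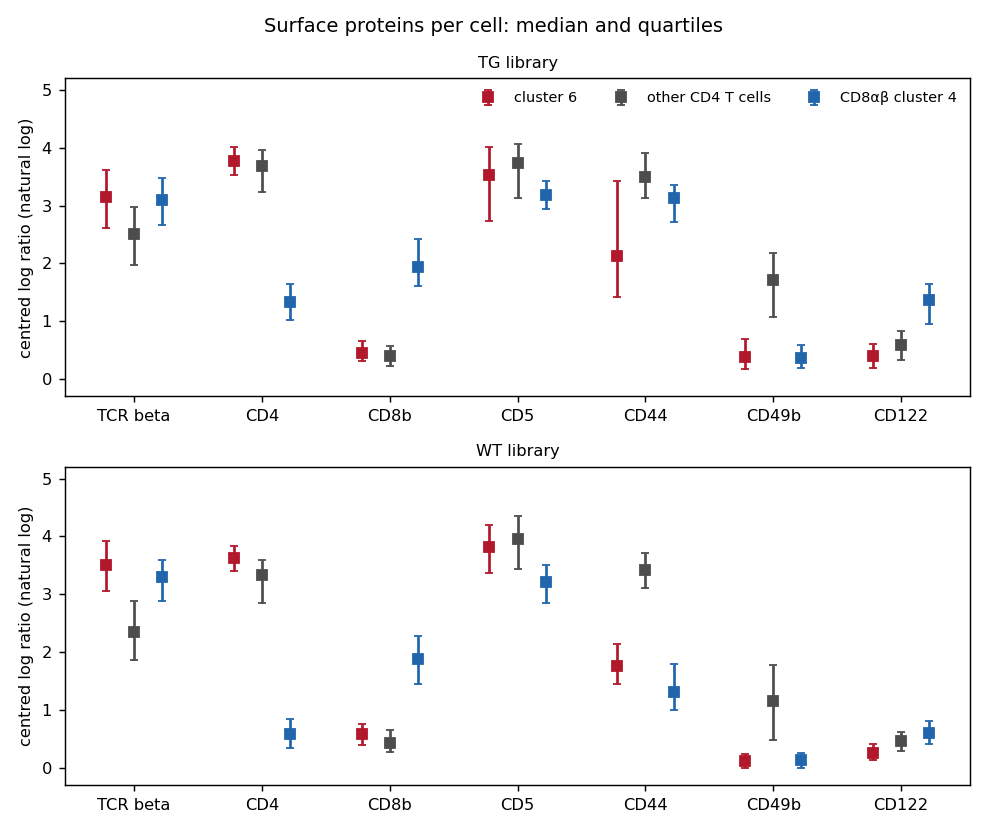
Median and quartiles of the natural-log centred ratio of 7 surface proteins in cluster 6, the other CD4 T cells and cluster 4 (TG and WT panels). CD44 and CD49b are lower in cluster 6 than in the other CD4 T cells, CD4 and CD8b separate it from cluster 4, and CD44 of TG members spreads upward.

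CD49b, the α2 integrin, was lower in cluster 6 than in the other CD4 T cells by a median difference of -1.33 in TG and -1.03 in WT, and TCR beta was higher by 0.63 and 1.17. CD357 (GITR), carried by regulatory and activated T cells, had differences of -0.78 and -0.20. Across the panel, 9 antibodies were higher and 21 lower in both libraries, and 10 went opposite ways. Against cluster 4, CD122, the protein of Il2rb, had differences of -0.98 in TG and -0.35 in WT. CD103, the αE integrin, had -0.82 in WT and -0.04 in TG. Between genotypes, the CD44 median was higher in TG members by 0.36, beside 1.83 in cluster 4, 0.08 in the other CD4 T cells and -0.05 in B cells. The shares below the CD44 gate in cluster 4 were 27.6% (TG) and 91.7% (WT). CD122 was higher by 0.13 in TG members and by 0.77 in cluster 4. CD357 was higher by 0.36 in TG members, beside 0.93 in the other CD4 T cells, 0.09 in cluster 4 and 0.11 in B cells. Its difference in members changed sign with the filter on B cell markers, which left few TG members. In all, 16 antibodies were higher and 27 lower in TG members. The panel counts in this paragraph rest on the sign of the median alone. They include antibodies near the floor, such as CD11c with a median count of 0 in TG members. By share of summed antibody counts the sign could differ. CD8b had a TG minus WT median difference of -0.14 but a log2 ratio of shares of 0.42 (0.26 to 0.58). No direction of the panel is read from these counts.

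The T cell receptor β variable segments were sparse and varied. TG members held 16 Trbv UMIs from 8 of 17 segments, led by Trbv13-2 and Trbv2 with 25% (7.27 to 52.4) each. WT members held 60 UMIs from 14 segments, led by Trbv2 with 20% (10.8 to 32.3). The inverse Simpson index, the effective number of segments, was 5.82 and 9.63, and it rests on too few UMIs in TG for a comparison.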

How the data were processed

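Single-cell libraries of CD45+ liver cells were made on the BD Rhapsody system with oligonucleotide-tagged antibodies, 1 library holding TG and 1 holding WT cells. The authors deposited UMI counts per gene, antibody and cell, made with the BD WTA Multiplex Rhapsody Analysis Pipeline 1.9 on build mm10 according to the submitters' processing notes, and a metadata table with genotype, cluster, cell type and the percent of mitochondrial UMIs. Antibody values were deposited by the authors as centred log ratios on a natural log scale. The clusters came from their integration of the libraries in Seurat, and the limits they used to keep cells are not given in the sources used here. In the deposited matrix of annotated cells, TG cells were at 0 for 611 genes and WT cells for 359 that had counts in their library. These genes were left out of the ranking of named genes and of the results flagged for a closer look. They were not left out of list medians or of counts of genes. Cells without a genotype name (5379 and 16829) stood for no genotype. A few genes and a surface protein are not reported here by name.

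Counts were summed per library and set with Python 3.11.15, numpy 2.4.6, pandas 2.3.3 and scipy 1.17.1. List medians used genes with at least 10 UMIs over both sets, and counts of genes 2-fold apart used at least 50, where 10 had been planned, because few UMIs alone give 2-fold gaps. Alternatives were totals that left out 93 ribosomal and 13 mitochondrial genes, TMM scaling (R 4.3.3 with edgeR 4.0.16), other minimums, thinning to 1000 UMIs, subsets of members and removal of doublets (Scrublet in scanpy 1.11.5 at an assumed rate of 5%, which marked 0.839% of TG and 3.27% of WT cells and none of cluster 6). No doublet was removed in the values reported. The CD44 gate used scikit-learn 1.9.0. Scripts were tested on simulated data.

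Members and gene lists were chosen with earlier results of these data known. Genes outside the lists were named by rule: for cluster 6 over each other set, the 10 highest and 10 lowest ratios with at least 50 UMIs and the same direction in both libraries, by the smaller absolute value, and for TG over WT the 10 whose interval lay farthest above and the 10 farthest below 0. Receptor and antibody segments, haemoglobin and sex genes, and genes with over 50% of their UMIs in 3 cells were left out of that ranking.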

Additional observations from a re-analysis of the deposited data

Results flagged for a closer look

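In 6 of the genes reported here, cluster 6 and cluster 4 stood in opposite order in the TG and WT libraries, with the 95% counting intervals of both log2 ratios on opposite sides of 0. The difference between the libraries was not tested, since each is 1 sample. Only genes of the lists with at least 50 UMIs in each library were screened, and their number was not recorded. Of all genes with at least 50 UMIs in this comparison, 359 of 2748 in TG had intervals above 0 and 223 below. In WT these were 536 and 440 of 5199. No pattern is therefore read from the count of 6. Of the 6 genes, 3 belong to the interferon list. Psmb8 had a ratio of cluster 6 over cluster 4 of 0.77 in TG and -0.45 in WT, Ifi203 of 0.65 and -0.28, and B2m of 0.22 and -0.21. For B2m the TG value is of the same size as the shift of -0.22 that TMM scaling made in this comparison. Id2, an inhibitor of E proteins and an activation gene, had 0.55 in TG and -0.64 in WT. Nsg2, a naive gene, went the other way, with -0.56 in TG and 0.54 in WT. Bbc3, encoding the death protein PUMA, had -2.04 in TG, where cluster 6 held 3 UMIs, and 1.15 in WT.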

How the results depend on the processing

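Of 344 values recomputed under alternatives for 52 results, 288 kept their direction within a tolerance, 50 moved beyond it and 6 changed sign. The tolerance was the median of the members' counting intervals for a list, 1.5 times for a count of genes and the spread between cells for a protein, or its sign alone for summed antibody counts. It is wide in TG, where the naive median over other CD4 T cells was within it at 0.85 against 1.45; the causes were not tested beyond what each alternative's construction gives (fewer cells, UMIs or genes). No paired analysis was possible because each genotype is 1 library, and no library could be left out. Filtering on all 10 B cell markers left only 12 TG and 252 WT members. With it the TG over WT medians of CD4 lineage genes and T cell receptor genes turned to 0.14 and 0.067 and the CD357 difference between genotypes (0.36) to -0.16. CD49b differed by 0.55 between genotypes and by -1.22 from the other CD4 T cells in WT. The CD4 lineage median over cluster 4 was 1.51 in TG, the CD8 lineage median -3.74 in WT, and the naive median over other CD4 T cells 1.11 in WT. Genes 2-fold higher and lower numbered 11 and 47 over other CD4 T cells in TG, 0 and 3 over cluster 4 in TG, and 198 and 197 for TG over WT, and 63 were lower over cluster 4 in WT. Thinning turned the TG over WT medians of TGFβ genes and T cell receptor genes to 0.015 and 0.064, and members with Cd4 and no Cd8 UMIs gave TGFβ genes 0.027. Thinned counts were 23 and 88 (over other CD4, TG), 217 lower (WT), 12 and 13 (over cluster 4, TG), 44 and 35 (WT), and 32 and 60 (TG over WT). TMM gave 176 higher over other CD4 T cells in WT, 60 and 152 over cluster 4 in TG, and 75 and 166 for TG over WT. Totals without ribosomal and mitochondrial genes gave 178 (TG) and 189 (WT) higher over other CD4 T cells. With no minimum, counts were 1648 and 1758 (over other CD4, TG), 1236 and 2199 (WT), 2080 and 1105 (over cluster 4, TG), 1265 and 1454 (WT), and 1938 and 902 (TG over WT). At 10 UMIs they were 599 and 1173, 439 and 1091, 806 and 628, 417 and 423, and 805 and 638, in the same order. The share difference of -29.7 points was -6.80 of T cells and -4.20 of all cells. Depth limits the 58 TG members most.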
